A study of Mus musculus with 2 samples.

Results

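The miR-30 family is made from 6 loci in the mouse, Mir30a, Mir30b, Mir30c-1, Mir30c-2, Mir30d and Mir30e, which lie as 3 pairs on chromosomes 1, 4 and 15. The members were found in the deposited tables by Ensembl identifier, with names from the mouse GENCODE annotation of the same assembly, and all 6 of the 6 had a row among the 1973 loci counted. Small RNA from the forebrain of B6NCrl mice on postnatal day 0 had been sequenced, in 2 libraries that form 1 group: pup 1 (replicate 1) and pup 3 (replicate 2), each a single forebrain. No treatment or genotype was compared, the sex was not collected, and both pups carry 1 donor entry in the labels. Levels are therefore given for each pup and as mean ± SD over both (n = 2), beside the differences between these libraries.

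MicroRNAs are cut from a hairpin precursor, whose 5p and 3p arms can each be loaded into Argonaute and pair with messenger RNAs. Pairing is led by the seed, bases 2 to 8 of the mature miRNA, so members of a family that share a seed are expected to recognise overlapping sets of targets. The miR-30 family is widely expressed in mammalian tissues, brain included, and its known targets include the messenger RNAs of the neurotrophin Bdnf and the autophagy protein Beclin 1.

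Mature sequences from RefSeq (assembly GRCm38.p6) were matched for 4 of the 6 members, and Mir30b and Mir30d are named only. The 5p arms are shown because they carry the seed that defines the family, which is in capitals, 5′ to 3′. The 5p arm of Mir384, an X-linked locus outside the family by name, was the only other mature sequence in the RefSeq table with this seed.
miR-30a-5p (chr1:23272274-23272295, plus strand): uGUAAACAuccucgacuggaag
miR-30e-5p (chr4:120772660-120772681, minus strand): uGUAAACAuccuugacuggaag
miR-30c-5p (from both Mir30c-1, chr4:120769584-120769606, minus strand, and Mir30c-2, chr1:23291714-23291736, plus strand): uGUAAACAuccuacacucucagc
miR-384-5p (chrX:105344332-105344354, minus strand): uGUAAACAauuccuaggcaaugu

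The 5p arms of Mir30a and Mir30e differed at a single base, C13U (miR-30a base, position counted from 1 at the 5′ end, miR-30e base), and miR-30c-5p shared the first 12 bases with both. The 3p arms split the family into different seeds, again in capitals.
miR-30a-3p (chr1:23272315-23272336, plus strand): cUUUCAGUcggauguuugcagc
miR-30e-3p (chr4:120772618-120772639, minus strand): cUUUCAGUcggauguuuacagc
miR-30c-1-3p (chr4:120769546-120769567, minus strand): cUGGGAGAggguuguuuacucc
miR-30c-2-3p (chr1:23291754-23291775, plus strand): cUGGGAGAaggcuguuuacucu
The 3p arms of Mir30a and Mir30e also differed at 1 base, G18A. The 3p arms of the miR-30c copies differed from each other at 3 bases, G9A, U12C and C22U (miR-30c-1 base first). The deposited counts are per locus, so the reads of the 5p and 3p arms of a hairpin cannot be told apart in them.

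By reads counted at a single locus, Mir30e led the family and Mir30c-1 closed it, and 3 of the 6 loci held nearly all of its counts. The family held 3.12% of the counts on the strand of a miRNA locus in pup 1 (85556 of 2742746, exact Clopper-Pearson interval at 95%, 3.10 to 3.14%) and 2.52% in pup 3 (61138 of 2427066, 2.499 to 2.539%), or 2.82% ± 0.425. Mir30e, Mir30a and Mir30d together held 2.80% ± 0.424, and Mir30b with both miR-30c copies 0.0220% ± 0.000889. These intervals cover counting error only, since amplified copies of 1 molecule were not merged by any identifier that the labels name. Reads that map to several places were counted at no locus, so any miR-30c reads of that kind are missing from these shares. Their number is not known.

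Mir30e (ENSMUSG00000065409.1, chr4:120772606-120772697, minus strand, in an intron of Nfyc, which encodes a subunit of the CCAAT-binding factor NF-Y) had 47400 counts in pup 1 and 33940 in pup 3. In CPM (counts scaled to a library total of 1000000), these were 17282 and 13984, a mean of 15633 ± 2332, at rank 13 of all loci. The locus ranked above it was Mirlet7b at 16220 ± 3830 CPM and the one below Mirlet7d at 14396 ± 2204 CPM, and the ranges of these 3 loci over the pups overlapped, so their order is not settled at this n.

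Mir30a (ENSMUSG00000065405.2, chr1:23272269-23272339, plus strand, with no annotated host gene on its strand) had 20481 and 14679 counts, which were 7467 CPM in pup 1 and 6048 CPM in pup 3. Its mean was 6758 ± 1004 CPM, at rank 29, between Mir411 (6833 ± 17.3 CPM) and Mir139 (6438 ± 224 CPM). Mir30d (ENSMUSG00000065437.1, chr15:68341208-68341289, minus strand, overlapping an exon of the noncoding transcript Gm20732) had 17054 and 12000 counts, or 6218 CPM in pup 1 and 4944 CPM in pup 3. Its mean was 5581 ± 901 CPM, at rank 32, between Mir322 (6034 ± 933 CPM) and Mir708 (5470 ± 451 CPM). The ranges of Mir30a and Mir30d over the pups overlapped, while within each library Mir30a was the higher, by 1.201-fold in pup 1 and 1.223-fold in pup 3. Mir30e stood 2.31-fold above Mir30a in both libraries, and their ranges did not overlap.

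The other 3 loci lay far lower. Mir30b (ENSMUSG00000065476.2, chr15:68337415-68337510, minus strand, 16 of its 96 bases within an exon of the noncoding transcript Gm26621) had 385 and 289 counts, or 140 CPM in pup 1 and 119 CPM in pup 3, a mean of 130 ± 15.1 at rank 192. Mir30c-2 (ENSMUSG00000065567.1, chr1:23291701-23291784, plus strand, in an exon of the noncoding transcript Gm27028) had 137 and 126 counts, or 49.9 and 51.9 CPM, a mean of 50.9 ± 1.39 at rank 237. Mir30c-1 (ENSMUSG00000065490.1, chr4:120769534-120769622, minus strand, in an intron of Nfyc) had 99 and 104 counts, or 36.1 and 42.9 CPM, a mean of 39.5 ± 4.78 at rank 247.

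These 3 loci were lower than the 3 abundant ones in both libraries by more than the spread between the pups, and their own ranges did not overlap with each other. Their neighbours in rank were Mir141 (132 ± 70.8 CPM) and Mir1306 (129 ± 13.8 CPM) for Mir30b, Mir702 (53.2 ± 23.3 CPM) and Mir146 (185 and 79 counts) for Mir30c-2, and Mir152 (40.1 ± 7.75 CPM) and Mir92-2 (39.0 ± 7.20 CPM) for Mir30c-1. Each differed from its member by less than its own spread over the pups. All 6 members had at least 10 counts in both libraries, as did 331 of the 1973 loci.

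**Figure D1:**
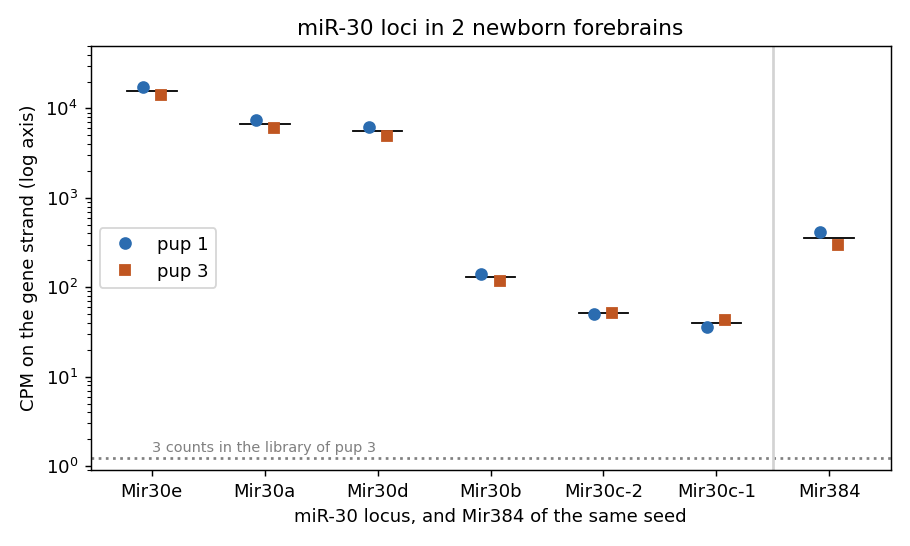
CPM on the gene strand (log axis) of the 6 miR-30 loci and of Mir384 in pup 1 (circles) and pup 3 (squares), with a black line at the mean of both and a dotted line at the level of 3 counts in the library of pup 3. Mir30e, Mir30a and Mir30d sit between 4944 and 17282 CPM, and Mir30b and the miR-30c copies between 36.1 and 140 CPM.

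Mir384 (ENSMUSG00000065499.1, chrX:105344282-105344369, minus strand, with no annotated host gene on its strand), which shares the 5p seed, had 1135 counts in pup 1 and 724 in pup 3. This was 414 and 298 CPM, a mean of 356 ± 81.7 at rank 144, above Mir30b and below Mir30d in both libraries. The annotation also places a miRNA named Mir30f on the plus strand over the same bases as Mir30e, with a mature sequence whose bases 2 to 8, UAAACAU, are not those of the family. The count on that strand, opposite Mir30e, was 0 in both libraries. A count of 0 allows up to 3 counts, which is 1.09 CPM in pup 1 and 1.24 CPM in pup 3. The opposite strand had 0 counts at the other 5 members as well.

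Each chromosome carries 1 of the 3 abundant loci and 1 of the 3 sparse ones, and in all 3 pairs the abundant locus lay upstream in the direction of transcription. The chromosome 4 pair within Nfyc, Mir30e and Mir30c-1 with 2.98 kb between them, held 1.73% of the counts in pup 1 and 1.40% in pup 3 (1.57% ± 0.233). The chromosome 1 pair, Mir30a and Mir30c-2, held 0.752% and 0.610% (0.681% ± 0.1002). The chromosome 15 pair, Mir30d and Mir30b with 3.70 kb between them, held 0.636% and 0.506% (0.571% ± 0.0916). The chromosome 4 pair was higher than both others in either library. The ranges of the chromosome 1 and chromosome 15 pairs overlapped, with the chromosome 1 pair higher within each library. The chromosome 1 loci lie 19.4 kb apart, so a limit of 10 kb between neighbours joins the other 2 pairs only.

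Within pairs the counts of the loci differed by 41.5-fold or more, without reads that map to several places. Mir30e had 479 times the counts of Mir30c-1 in pup 1 and 326 times in pup 3 (log2 ratio of CPM + 1, 8.59 ± 0.39). Mir30a had 149 and 116.5 times the counts of Mir30c-2 (7.02 ± 0.25), and Mir30d had 44.3 and 41.5 times those of Mir30b (5.41 ± 0.07). The order of the 3 ratios was the same in both libraries. Mir30c-1 made up 0.208% of the counts of its pair in pup 1 (95% exact interval 0.169 to 0.254%) and 0.305% in pup 3 (0.250 to 0.370%), and Mir30c-2 0.664% (0.558 to 0.785%) and 0.851% (0.709 to 1.01%). Mir30b made up 2.21% (1.99 to 2.44%) and 2.35% (2.09 to 2.64%). In each pair the intervals of the 2 libraries overlapped, at Mir30c-1 only just. Such overlap does not show equal shares, and the differences between the libraries in them were not tested.

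**Figure D2:**
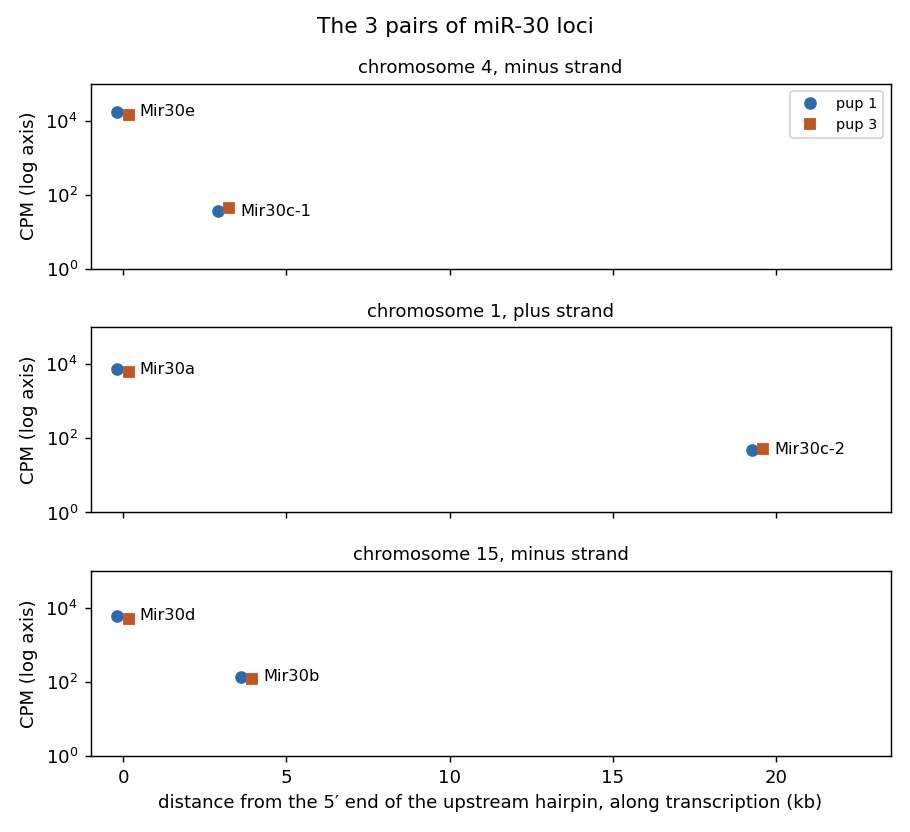
CPM on the gene strand (log axis) of the loci of each pair against the distance along transcription from the 5′ end of the upstream hairpin (kb), for pup 1 (circles) and pup 3 (squares), drawn side by side at each position. The upstream locus is the abundant one in all 3 pairs, and the loci of chromosome 1 lie 19.4 kb apart against 2.98 and 3.70 kb in the others.

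The 2 miR-30c copies lay close to each other, with Mir30c-2 higher. Mir30c-2 had 1.38 times the counts of Mir30c-1 in pup 1 and 1.21 times in pup 3 (log2 ratio of CPM + 1, 0.36 ± 0.13). Its share of the counts of both copies was 58.1% in pup 1 (95% exact interval 51.5 to 64.4%) and 54.8% in pup 3 (48.1 to 61.3%). The interval of pup 3 includes equal counts, so at about 100 counts a locus the difference between the copies was not detectable in that library.

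The copies are processed into the same 5p arm, and their hairpins are shown because the identical stretch bears on what could be counted. The longest run that both hold, in capitals, was 28 bases, and it takes in the whole of the 5p arm.
Mir30c-1 hairpin: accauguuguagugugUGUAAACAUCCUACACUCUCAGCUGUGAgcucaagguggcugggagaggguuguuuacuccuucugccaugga
Mir30c-2 hairpin: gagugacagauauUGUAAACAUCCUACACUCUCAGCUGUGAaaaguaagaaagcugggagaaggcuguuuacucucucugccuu
A read that lies within this run matches both hairpins, and the tables list reads that map to several places in a row of their own, in no locus. That row held 42.2% of all reads in pup 1 and 44.1% in pup 3, and how many of them were miR-30c is not known. The counts at Mir30c-1 and Mir30c-2 are therefore no measure of the total of miR-30c, and the part of multiple mapping in their low counts was not tested. For comparison, the longest run that the hairpins of Mir30a and Mir30e share was 18 bases, shorter than either of their arms.

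Other miRNAs with numbered copies showed both low and high counts. Mir26a-1 and Mir26a-2, which share an identical 5p arm in a run of 25 bases and lie in genes of the Ctdsp phosphatase family, had 12.3 ± 1.67 and 43.0 ± 1.53 CPM. Their relative Mir26b, which shares no arm, had 9605 ± 1732 CPM, 258 times the counts of Mir26a-2 in pup 1 and 190 times in pup 3. The miR-30c copies stood likewise below Mir30a and Mir30e. Mir7-1 and Mir7-2, identical over the 5p arm, had 592 ± 98.2 and 595 ± 73.3 CPM. They too stood below a locus of their family, Mir7b, which had 8112 counts in pup 1 and 4430 in pup 3. Mir7-1 had 1815 and 1269 counts, and Mir7-2 1775 and 1319. Mir128-1 and Mir128-2, identical over the 3p arm in a run of 23 bases, had 11051 ± 405 and 4084 ± 319 CPM. These counts do not tell the shared arm of a copy from its other arm, and the part of multiple mapping in them was not tested.

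**Figure D3:**
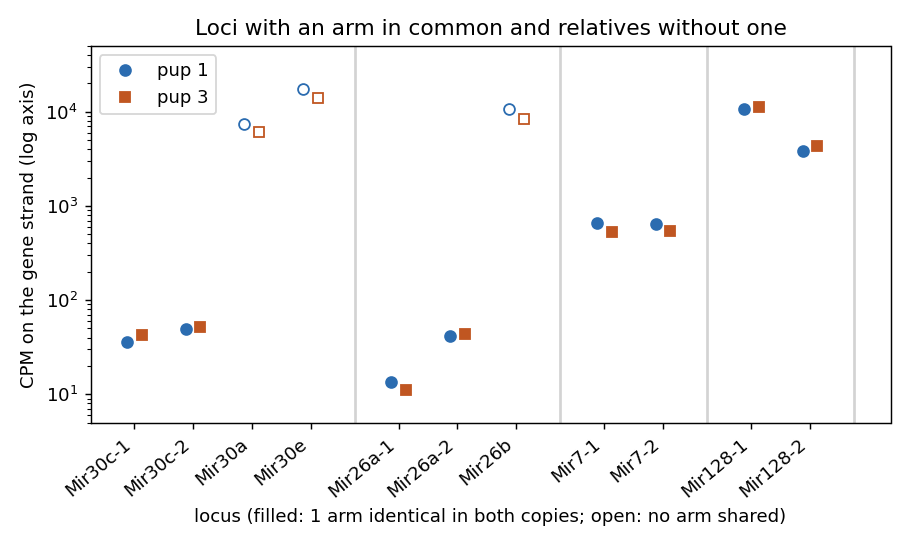
CPM on the gene strand (log axis) in pup 1 (circles) and pup 3 (squares) of loci that share an identical mature arm with their copy (filled) and of relatives that share none (open). The miR-30c and miR-26a copies lie between 11.1 and 51.9 CPM, below their relatives, and the miR-7 and miR-128 copies lie between 523 and 11337 CPM. Mir7b, higher than both miR-7 copies, is not drawn.

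The 3 abundant loci made up nearly the same part of the family in both pups. Mir30e made up 55.4% of the family's counts in pup 1 (95% exact interval 55.1 to 55.7%) and 55.5% in pup 3 (55.1 to 55.9%). For Mir30a these were 23.9% (23.7 to 24.2%) and 24.0% (23.7 to 24.4%), and for Mir30d 19.9% (19.7 to 20.2%) and 19.6% (19.3 to 19.9%). The intervals of the 2 libraries overlapped at each of these loci, and a share within the family needs no scaling between libraries. Among the sparse loci, Mir30b made up 0.450% and 0.473%, Mir30c-2 0.160% and 0.206%, and Mir30c-1 0.116% (0.0941 to 0.141%) and 0.170% (0.139 to 0.206%). The intervals overlapped at all 3, at Mir30c-1 only just. Overlap does not show that shares are equal, and differences in these shares were not tested. Any miR-30c reads that map to several places are missing from the family's counts, so these are shares of the reads counted at a locus.

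**Figure D4:**
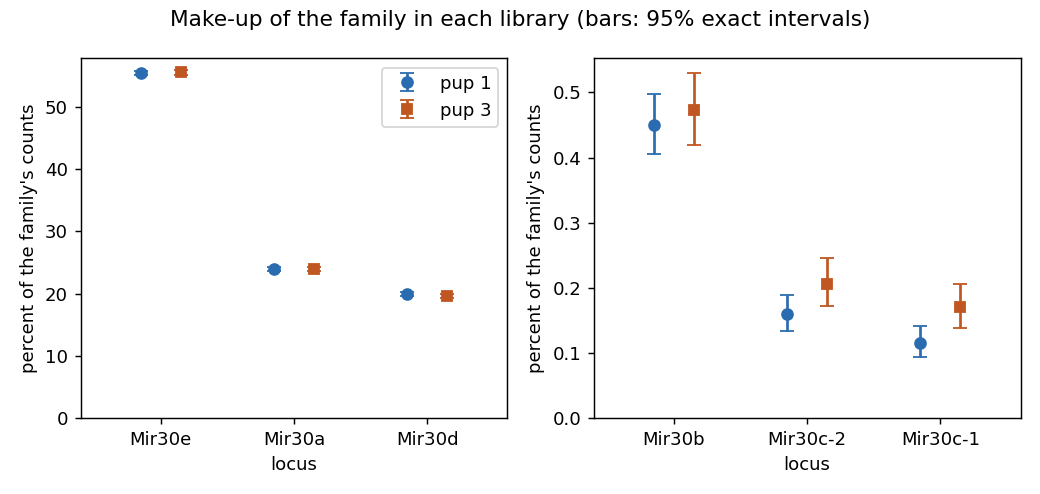
Percent of the family's counts at each locus in pup 1 (circles) and pup 3 (squares), with 95% exact intervals as bars, for the abundant loci (left) and the sparse ones (right, on a smaller scale). Mir30e stands at 55.4% and 55.5%, and the intervals of the 2 libraries overlap at all 6 loci.

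Relative to library totals, Mir30e, Mir30a and Mir30d were lower in pup 3, and by nearly the same ratio. The log2 ratio of pup 3 over pup 1 (of CPM + 1) was −0.31 at Mir30e (adjusted exact p = 1.81e-198), −0.30 at Mir30a (6.33e-85) and −0.33 at Mir30d (8.93e-83), from Fisher's exact test of each locus against the rest of its library, two-sided, with Benjamini-Hochberg adjustment over 400 loci with at least 10 summed counts. Each side is 1 library, so the test compares these libraries and no conditions. Mir30b (−0.24, adjusted exact p = 0.0637), Mir30c-2 (0.05, 0.845) and Mir30c-1 (0.24, 0.316) did not pass. Their 95% exact intervals ran from −0.46 to −0.01, from −0.30 to 0.42 and from −0.16 to 0.66.

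Of the 6 members 3 passed the test, all lower in pup 3, and of all 400 loci tested 56.5% passed, 46.2% lower and 10.2% higher. The share of members called is thus near that of all loci. The median log2 ratio of all tested loci was −0.31, and 51.2% of them lay below Mir30e, so the abundant miR-30 loci sat in the middle of the distribution. The most abundant locus, Mir99a, of the miR-99/100 family, held 25.5% of the counts in pup 1 and 28.4% in pup 3, and these totals include it. With totals without Mir99a, Mir30e (−0.25), Mir30a (−0.25) and Mir30d (−0.27) were still lower in pup 3. The same 3 members passed, and 212 of all loci did.

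DESeq2 size factors, which scale each library by its typical locus, put the median of the 400 loci at −0.02. With them in place of totals, the abundant loci no longer differed beyond the threshold, with log2 ratios of 0.01 at Mir30e (adjusted exact binomial p = 0.604), 0.01 at Mir30a (0.728) and −0.02 at Mir30d (0.478). On this scale 1 member passed, Mir30c-1, higher in pup 3 at a log2 ratio of 0.55 (0.0165), from 99 and 104 counts, against 45.2% of all 400 loci, 24.5% higher and 20.8% lower. Mir30b, at 0.08 (0.678), and Mir30c-2, at 0.36 (0.0816), did not pass on this scale, and the sign of Mir30b differed from that with totals. With TMM-adjusted library sizes of edgeR, the abundant loci passed at smaller ratios, −0.05 at Mir30e (adjusted exact binomial p = 3.37e-07), −0.05 at Mir30a (0.00166) and −0.08 at Mir30d (1.09e-05), and Mir30c-1 passed at 0.49 (0.0350). These 4 members stand against 46.5% of all 400 loci, 20.5% higher and 26% lower. Mir384 was lower in pup 3, at −0.47 with totals (adjusted exact p = 1.32e-11) and −0.16 with size factors (0.0469). Whether Mir384 differed from the miR-30 loci in this was not tested.

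**Figure D5:**
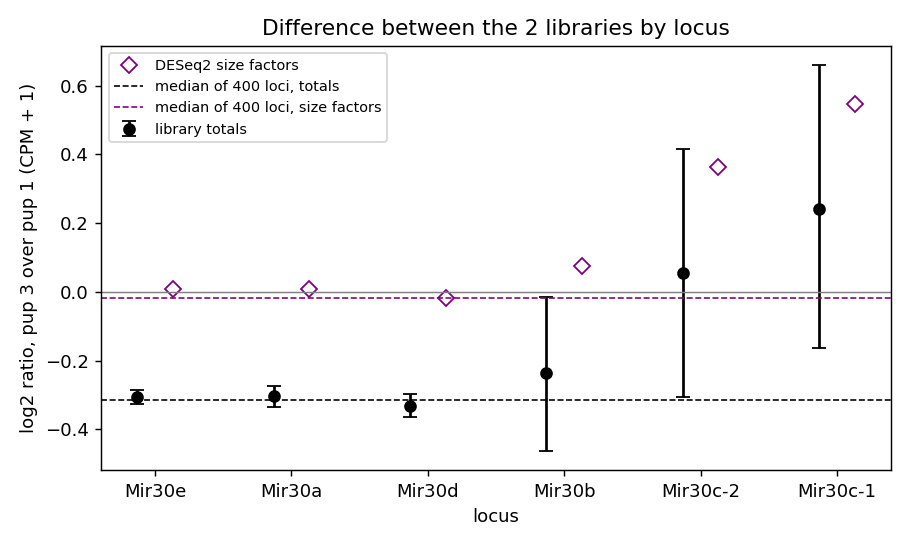
Log2 ratio of pup 3 over pup 1 of each miR-30 locus relative to library totals (black circles, bars are 95% exact intervals of counting error without the pseudocount) and with DESeq2 size factors (open diamonds), with the median of the 400 tested loci on each scale as dashed lines. Mir30e, Mir30a and Mir30d lie within 0.03 of each other and beside the median of all loci on both scales.

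The tissue label was checked on marker miRNAs. The neuron-enriched list held 5.14% of the counts in pup 1 and 4.46% in pup 3, with 9 of 11 loci detected. Mir124a-2 (5 and 4 counts) and Mir124a-3 (3 and 2 counts), copies of the neuronal miR-124, were not, and the copy Mir124a-1 had only 15 and 21 counts. Mir137 alone held 77520 and 56571 of the list's 140895 and 108333 counts. The neural progenitor list held 0.951% and 0.881% (4 of 5 detected, without Mir9-2, with 8 and 2 counts) and the blood vessel list 3.50% and 3.94% (3 of 3). The Hox cluster list of hindbrain and spinal cord held 236 and 268 CPM, white blood cells 379 and 394 CPM, red blood cells 88.2 and 71.3 CPM, the liver miRNA Mir122 48.1 and 63.0 CPM, and muscle 24.4 and 45.3 CPM, with Mir133b, Mir133a-1, Mir133a-2 and Mir1a-1 at 0. Because of multiple mapping, counts at or near 0 at numbered copies, such as Mir9-2, Mir133a-1, Mir133a-2 and Mir1a-1, do not show that a miRNA was absent. For the same reason, the low counts at Mir124a-1, Mir124a-2 and Mir124a-3 are no measure of the total of miR-124. The part of multiple mapping in them was not tested. In bulk tissue, fewer cells of a type and less RNA per cell cannot be told apart, and which cells made the miR-30 counts is not known from these libraries.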

How the data were processed

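Each table that the authors deposited holds unnormalized read counts of 1 library by miRNA gene. Per the labels and the accompanying deposited text, reads were placed on mm10 with annotation M4. Aligner and counting tool were not given in the sources used here. Counts on the gene strand were used, without the 4 rows that name no gene. Names came from GENCODE M21 (GRCm38, the assembly of mm10; 1894 of 1973 rows matched) and sequences from RefSeq.

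CPM are counts per 1000000 gene-strand counts, and ratios use CPM + 1. A single group leaves no contrast for edgeR's quasi-likelihood test. Fisher's exact test (SciPy 1.17.1, threshold 0.05 on Benjamini-Hochberg adjusted p) compared the libraries. The script was tested on simulated libraries that held sampling noise only. It recovered 46.3% of 1.5-fold, 71.2% of 2-fold and 89.6% of 4-fold changes. Noise between animals was not simulated. Both libraries were kept, as their counts at 331 detected loci differed by more than sampling noise. Alternatives were edgeR 4.0.16 TMM sizes, DESeq2 1.42.0 size factors, other pseudocounts, filters, columns and denominators. The planned limit of 10 kb for a cluster split the chromosome 1 pair, which was kept as a pair. The members, lists and tests were chosen with earlier results of these data known. Named loci are the members, loci of the same seed, neighbours in rank, miR-26a, miR-128 and miR-7 copies, and the most abundant locus. Loci of the fixed marker lists are named in the check of the tissue. Mir26b, Mir7b and Mir30f were named beyond this rule.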

Additional observations from a re-analysis of the deposited data

How the results depend on the processing

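No paired analysis was possible because the series holds 1 group. Without Mir99a in the denominator, the family's share was 3.85%, and those of the chromosome 1, 4 and 15 pairs were 0.930%, 2.14% and 0.780%. As shares of all reads of a library they were 1.16%, 0.281%, 0.646% and 0.235%; both settings only change the denominator. With DESeq2 size factors 1 member differed between the libraries in place of 3, and the log2 ratios of Mir30a (0.0094), Mir30e (0.0080) and Mir30b (0.0756) changed sign. With TMM sizes 4 members differed, and the ratio of Mir30b (0.0132) changed sign. The median of all 400 loci tested was −0.31 with totals, −0.08 with TMM sizes and −0.02 with size factors. Why the scales differed was not tested. At the main filter, Mir30b passed on neither of these scales nor with totals. With totals and a filter of 50 summed counts 4 members differed in place of 3. Of all loci 227 differed at that filter in place of 226, out of fewer loci tested. By order of unadjusted p from Fisher's exact test, the added member was Mir30b (0.0371, against 0.232 at Mir30c-1 and 0.758 at Mir30c-2). Of 119 values recomputed, 91 kept their direction and side of the threshold, moved by less than the spread or, as counts, stayed within 1.5 times. All ratios between loci were among them. The members had 0 counts on the opposite strand, so the column of both strands could hardly move these ratios. The values that left out a replicate were all among the 91 as well. With 2 libraries such values always move by less than the SD, so they do not test stability. With a limit of 25 kb, chosen after seeing the data, 3 pairs were joined in place of 2. The miR-30c copies rest on 99 to 137 counts a library.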

Other observations

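Across the tables, loci that share an identical mature arm with another locus while the other arm is their own, as both miR-30c copies do, covered a wide range of levels. Of 53 such loci with a RefSeq sequence, 35 (66.0%) had at least 10 counts in both libraries, with levels from 5.59 to 11051 CPM and a median of 386. Counted from the lowest of these 35, Mir30c-1 stood at position 9 and Mir30c-2 at position 11, beside Mir92-2 (39.0 CPM) and Mir26a-2 (43.0 CPM). Of 34 loci with all arms shared, 17.6% were detected, and of 829 with no arm shared, 31.8%. Differences between these shares were not tested.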
